A study of Mus musculus with 6 samples.

Results

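Chemokines are small secreted proteins that draw leukocytes towards their source, and chemokine receptors are the G protein-coupled receptors through which cells read them. The genes described here are those whose name on the array began with Ccl, Cxcl, Cx3cl, Xcl, Ccr, Cxcr, Cx3cr or Xcr followed by a number. They comprised 53 of 36095 array targets (genes, or transcripts named only by an identifier), 35 of ligands and 18 of receptors, on 67 of the 55681 probes that were not controls. Total RNA came from the back skin of male C57BL/6 mice aged 6 to 8 weeks, without any transgene or mutant allele named in the labels. All 6 mice had their backs shaved. In the UVB group, 3 mice were anesthetized and exposed to ultraviolet B light at 180 mJ/cm2, starting 2 days after shaving and repeated 3 times a week for 2 weeks. The 3 control mice were kept in the dark and not exposed. Each mouse gave 1 array of 1 colour, labelled with the dye Cy3, and the labels do not say how long after the last exposure skin was taken. The question is which chemokines and receptors differ in transcript level between exposed and unexposed skin.

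The family is named by the spacing of its first cysteines: CC ligands have them adjacent, CXC ligands have 1 residue between them, and the CX3C and XC types are smaller branches. CXC ligands with the glutamate-leucine-arginine (ELR) motif act through Cxcr2 and attract neutrophils, whereas Cxcl9, Cxcl10 and Cxcl11 are induced by interferon and act through Cxcr3 on activated T cells and natural killer cells. In skin, keratinocytes, fibroblasts, endothelium and resident leukocytes each make their own ligands, and receptors such as Ccr4 and Ccr10 are known for guiding T cells to the skin.

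Levels are log2 processed intensities relative to the 75th percentile of the same array, so that 0 is that percentile, and a level describes 1 probe and is not compared between genes. That percentile was 363 to 519 in signal on control arrays and 302 to 352 on UVB arrays, and 54.9% to 63.3% of spots were flagged by the scanner software as well above background, here called detected. No spot was saturated. Where a list of genes is given a summed level, the linear levels of its probes are added, so its brightest probes weigh most. The defining skin genes Krt5, Krt14, Krt1, Krt10, Col1a1 and Col3a1 were detected on all 6 arrays. With 3 arrays per group, the number of arrays limits the precision of every value. In whole skin, fewer cells of a type and less RNA per cell cannot be told apart.

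After UVB, the interferon-inducible ligand Cxcl9, the monocyte and T cell attractant Ccl8, the CC ligand Ccl6, the CC ligand Ccl25 and the receptor Cxcr3 were higher. The neutrophil attractant Cxcl1, the constitutive skin chemokine Cxcl14, the lymphocyte product Xcl1 and the receptors Ccr4, Cx3cr1 and Cxcr7 were lower. Testing required a probe detected on 3 or more of the 6 arrays, which 33 of the 53 genes had. Of these 33, 5 were higher, 6 were lower and 22 did not pass (limma, Benjamini-Hochberg adjusted p under 0.05 over 24358 targets). Over all targets, 12.5% were called, 5.54% higher and 7% lower. By kind, 4 of 23 tested ligands were higher and 3 lower, and 1 of 10 tested receptors was higher and 3 lower. The median log2 fold change was 0.16 over the 33 genes and -0.04 over all targets. The groups did not overlap for 19 of the 33 genes, and for 38.5% of all targets. With 1 array left out, 2 to 4 members were higher and 2 to 6 lower: 2 and 5 without control replicate 1, 2 and 2 without control replicate 2, 2 and 6 without control replicate 3, 2 and 3 without UVB replicate 1, 3 and 4 without UVB replicate 2, and 4 and 5 without UVB replicate 3.

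**Figure D1:**
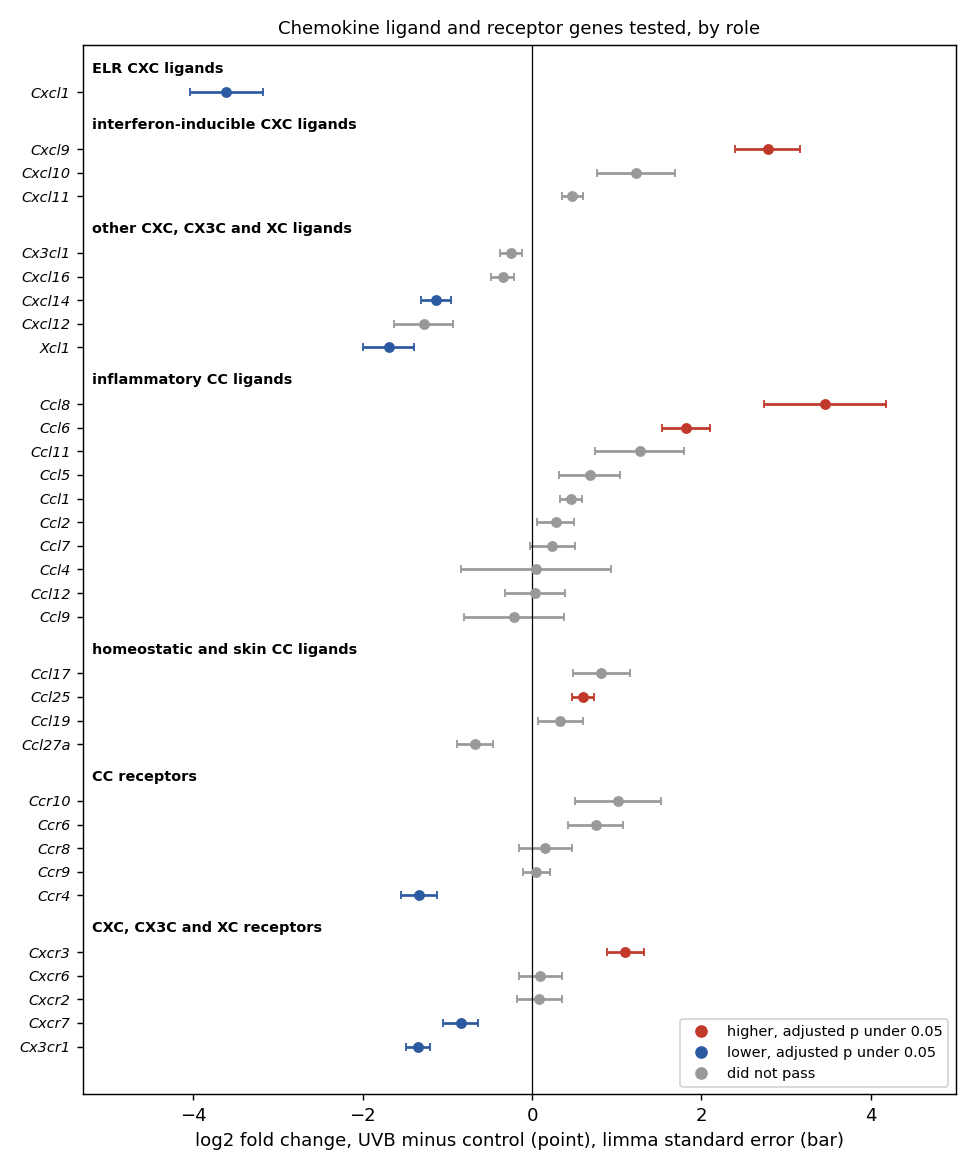
Log2 fold change (UVB minus control, horizontal axis) of the 33 tested chemokine ligand and receptor genes, ordered by role. Points are limma estimates and bars their standard errors, 5 genes are marked higher (red), 6 lower (blue) and 22 not passed (grey). Ccl8 stands at 3.46, and the point of Cxcl1 (-3.61) rests on a UVB group in which 1 of 3 arrays detected it.

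For 4 of the genes the results turn on, the 250 bases upstream of the RefSeq start site (GRCm38.p6) are printed to show the promoter letters beside the array values. Cxcl9 and Cxcl10 are interferon-inducible neighbours, Cxcl1 was the ELR ligand that fell and Cxcl14 was another ligand that fell. Capitals mark matches, on either strand, to the interferon-stimulated response element (ISRE, a pair of GAAA half-sites with any NN between them) and the gamma-activated site TTCNNNGAA (GAS). Also marked are the AP-1 site TGANTCA, the letters TATAAA at any place in the window, and the NF-kB consensus. Overlapping matches of the same motif run together. The Cxcl9 sequence is chr5:92328080-92328329 on the minus strand, Cxcl10 is chr5:92348890-92349139 on the minus strand, Cxcl1 is chr5:90890995-90891244 on the plus strand, and Cxcl14 is chr13:56296552-56296801 on the minus strand.
Cxcl9: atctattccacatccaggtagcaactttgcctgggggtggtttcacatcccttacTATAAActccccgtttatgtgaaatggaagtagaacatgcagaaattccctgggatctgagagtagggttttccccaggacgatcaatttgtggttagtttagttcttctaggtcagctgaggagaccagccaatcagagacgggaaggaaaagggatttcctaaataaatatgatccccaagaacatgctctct
Cxcl10: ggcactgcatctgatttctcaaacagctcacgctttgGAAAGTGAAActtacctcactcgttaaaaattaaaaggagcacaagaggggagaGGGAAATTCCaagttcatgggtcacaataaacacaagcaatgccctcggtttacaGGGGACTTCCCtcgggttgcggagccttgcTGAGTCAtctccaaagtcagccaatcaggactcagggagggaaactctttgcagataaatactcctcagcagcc
Cxcl1: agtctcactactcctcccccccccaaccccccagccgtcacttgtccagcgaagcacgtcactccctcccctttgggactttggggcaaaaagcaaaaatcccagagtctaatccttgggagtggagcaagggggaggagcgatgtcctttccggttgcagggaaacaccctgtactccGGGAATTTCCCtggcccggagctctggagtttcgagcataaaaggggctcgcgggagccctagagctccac
Cxcl14: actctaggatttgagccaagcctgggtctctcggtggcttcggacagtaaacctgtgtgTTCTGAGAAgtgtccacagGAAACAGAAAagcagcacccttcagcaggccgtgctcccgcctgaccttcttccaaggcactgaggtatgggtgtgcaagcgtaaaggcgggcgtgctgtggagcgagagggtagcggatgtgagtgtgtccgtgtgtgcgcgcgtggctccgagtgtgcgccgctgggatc

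In the Cxcl10 window, an ISRE match lay at -213 to -204 from the start site, NF-kB matches at -159 to -150 and at -104 to -94, and an AP-1 match at -74 to -68. Cxcl1 held NF-kB matches at -71 to -61, and Cxcl14 held a GAS match at -191 to -183 and an ISRE match at -172 to -163. Cxcl9 held the letters TATAAA at -195 to -190 and no match to the other motifs searched. Interferon response elements with other letters were not searched for, so the window may hold some that are not marked. The promoter table held 39 of the 53 genes. Of these 39, 10 held an NF-kB match, among them the ELR ligand genes Cxcl1, Cxcl2 and Cxcl3, against 7.25% of 32851 promoter windows of the same length. An ISRE match was found for 3 of the 39 (Ccl19, Cxcl10 and Cxcl14), against 2.98% of windows. GAS and AP-1 matches were found for 4 and 5 of them, against 7.02% and 6.75%, and TATAAA for 13, against 12.4%. A match describes letters in the window and not binding of a factor.

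Among the ELR ligands, only 1 of 5 could be tested. Cxcl1, which attracts neutrophils through Cxcr2, stood at -1.72, -0.79 and -1.79 on the control arrays and at -5.78, -5.00 and -4.35 on the UVB arrays. Every UVB array was below every control array, and UVB replicate 3 was the single UVB array on which it was detected. Cxcl1 passed as lower (limma adjusted p = 0.00682, n = 3 per group), and did so when any 1 array was left out (limma adjusted p = 0.00752 to 0.0291). The fitted log2 fold change was -3.61 ± 0.43 (SE), and -1.32 with normexp background correction, which passed too (limma adjusted p = 0.00377). With 2 of 3 UVB arrays at background, the size of the fall was not settled and no fold is given. Cxcl2, Cxcl3, Cxcl5 and Cxcl15, the other ELR ligands, were not detected on any of the 6 arrays. Their receptor Cxcr2 stood at -2.06, -1.12 and -1.16 in controls and at -1.32, -1.37 and -1.39 after UVB, with a log2 fold change of 0.09 ± 0.27 that did not pass (limma adjusted p = 0.856). The other receptor of this group, Cxcr1, was detected on 2 of 3 control arrays and on none of the UVB arrays. It stood at -4.60, -3.73 and -5.16 in controls and at -6.81, -6.52 and -6.84 after UVB. It was not tested, and with every UVB array at background no fold is given. Of 10 neutrophil markers on the array, 5 were tested and none passed (limma), including S100a8 (1.35 ± 0.40), S100a9 (1.22 ± 0.44) and Csf3r (0.44 ± 0.18). The summed linear level of the list, relative to the 75th percentile, was 127 to 162 in controls and 194 to 280 after UVB. Nearly all of that sum is the level of Csf3r, S100a9 and S100a8, so it does not stand for the list. Mpo was detected on 2 control arrays and no UVB array and was not tested. The granule genes Retnlg, Mmp8, Ngp and Ltf were not detected on any array.

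Of the 3 interferon-inducible ligands, Cxcl9 rose, and Cxcl10 and Cxcl11 did not pass. Cxcl9 stood at -1.80, -1.68 and -1.56 in controls and at 1.29, 1.77 and 0.23 after UVB. All UVB arrays were above all controls, with UVB replicate 3 lowest. The rise of 2.78 ± 0.38 on the log2 scale equals 6.87-fold (limma adjusted p = 0.00986), and it passed without any 1 array (limma adjusted p = 0.00165 to 0.0456). A second Cxcl9 probe gave -3.10, -2.88 and -2.80 in controls and -0.07, 0.41 and -0.86 after UVB, a rise of 2.75 ± 0.32 (limma adjusted p = 0.00681 over all probes).

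Cxcl10, the neighbour of Cxcl9 whose upstream letters carried the ISRE and NF-kB matches, stood at 0.59, 0.21 and -0.87 in controls and at 1.14, 1.84 and 0.62 after UVB. The groups were just apart, since control replicate 1 and UVB replicate 3 nearly met. Its log2 fold change of 1.23 ± 0.46 did not pass (limma adjusted p = 0.127). Cxcl11, the third ligand of Cxcr3, stood at 9.07, 8.79 and 8.82 in controls and at 9.36, 9.33 and 9.41 after UVB. Its log2 fold change of 0.48 ± 0.13 did not pass (limma adjusted p = 0.0574), and was 0.28 with quantile normalization and 0.25 in the deposited table. Whether this bright probe reads Cxcl11 alone was not tested. The other Cxcl11 probe gave 3.23, 3.44 and 3.50 in controls and 4.17, 3.58 and 3.68 after UVB (0.42 ± 0.19).

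Their receptor Cxcr3, carried by activated T cells, stood at -3.19, -3.35 and -3.45 in controls and at -2.26, -1.82 and -2.59 after UVB. No UVB array reached down to the controls. The rise of 1.10 ± 0.21 equals 2.15-fold (limma adjusted p = 0.0255). With control replicate 1, 2 or 3 left out, the limma adjusted p of Cxcr3 was 0.0565, 0.0942 and 0.0745, and with UVB replicate 1 left out it was 0.0792, none of which passed. Ifng, the inducer of these ligands, rose by 2.26 ± 0.24 (limma adjusted p = 0.00495), from -4.83, -4.53 and -4.78 in controls to -2.67, -1.95 and -2.74 after UVB. The transcription factor Irf1 had -0.20 ± 0.21 and did not pass (limma adjusted p = 0.545).

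**Figure D2:**
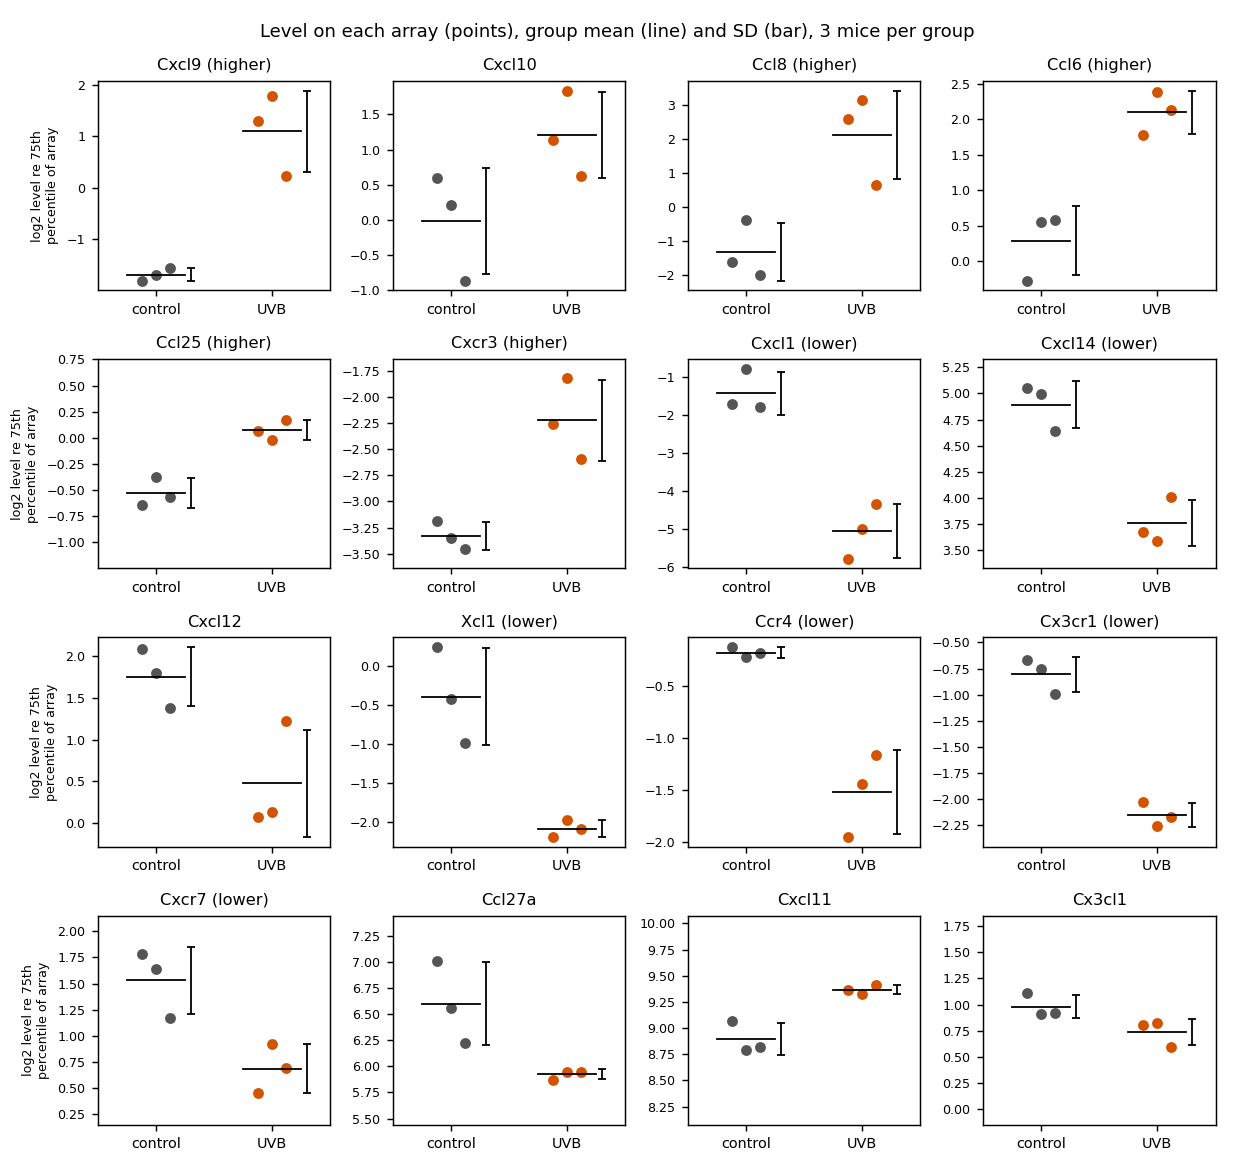
Level of 16 chemokine and receptor genes on each array (points; vertical axis, log2 relative to the 75th percentile of the array, scaled separately in each panel), with the group mean (line) and SD (bar) for 3 control and 3 UVB mice. Cxcl9, Ccl8, Ccl6, Ccl25 and Cxcr3 are marked higher and Cxcl1, Cxcl14, Xcl1, Ccr4, Cx3cr1 and Cxcr7 lower. The 16 genes shown all come from the 19 of 33 tested members whose groups did not overlap. Over all targets that share was 38.5%.

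T and natural killer cell markers moved in both directions beside Cxcr3. Of 13 on the array, 12 were tested, 3 were higher and 6 lower, against 5.54% and 7% of all targets. Gzma and Gzmb, of cytotoxic cells, had log2 fold changes of 1.67 ± 0.22 and 1.00 ± 0.22, and Cd8a was higher with no control array on which it was detected. The T cell receptor subunit Cd3g had -2.05 ± 0.18 and Cd3d -1.45 ± 0.16. The summed level of the list was 21.4 to 27.2 in controls and 13.8 to 19.6 after UVB, and Ncr1 was not detected on any array. The part of these cells in the values of Cxcr3, Ccr4 and Xcl1 was not tested.

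Of the other CXC, CX3C and XC ligands, 2 of 5 tested genes were lower and none was higher, against 7% and 5.54% of all targets. The median log2 fold change of the 5 was -1.13. All 5 had every UVB array below every control array, as had 22.6% of all targets tested. Cxcl14, made constitutively by keratinocytes, stood at 5.05, 4.99 and 4.64 in controls and at 3.68, 3.59 and 4.01 after UVB. It fell by 1.13 ± 0.18, or 2.19-fold (limma adjusted p = 0.0142), and did not pass without control replicate 2 (0.0643) or UVB replicate 1 (0.0582). Xcl1, lymphotactin, a product of activated T cells and natural killer cells, stood at 0.25, -0.42 and -0.99 in controls and at -2.19, -1.97 and -2.09 after UVB. The 3 UVB arrays lay close together while the controls were spread. The fall of 1.70 ± 0.31 equals 3.24-fold (limma adjusted p = 0.0213). Leaving out control replicate 2 ended the call of Xcl1 (limma adjusted p = 0.0768), as did leaving out UVB replicate 1 (0.0754), 2 (0.0550) or 3 (0.0529). Its receptor Xcr1, of cross-presenting dendritic cells, was not detected on any array.

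Cxcl12, the stromal ligand of Cxcr4 and Cxcr7, stood at 2.09, 1.80 and 1.38 in controls and at 0.08, 0.13 and 1.22 after UVB, where UVB replicate 3 came near the controls. The log2 fold change of -1.28 ± 0.35 did not pass (limma adjusted p = 0.0636), and passed without UVB replicate 3 (0.0180) and with the mean of both probes (-1.37, 0.0458). The second probe, which matches another transcript accession of the gene, gave -0.03, -0.32 and -0.94 against -2.25, -2.04 and -1.35, a log2 fold change of -1.45 ± 0.32 (limma adjusted p = 0.0379 over all probes). Cxcr7, an atypical receptor now named Ackr3 that takes up Cxcl12 without G protein signalling, stood at 1.78, 1.64 and 1.17 in controls and at 0.45, 0.92 and 0.69 after UVB. Its fall of 0.85 ± 0.21 equals 1.80-fold and only just passed (limma adjusted p = 0.0497). Cxcr7 passed without control replicate 3 (limma adjusted p = 0.0396) but with control replicate 1 or 2 left out the p was 0.113 and 0.157, with UVB replicate 1, 2 or 3 left out it was 0.134, 0.0667 and 0.106, and it did not pass with quantile normalization (0.0586) or in the deposited table (0.0551). Cxcr4 was detected on 2 control arrays and no UVB array and was not tested. It stood at -4.66, -4.86 and -5.44 in controls and at -6.02, -6.39 and -4.58 after UVB, and the groups overlapped.

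Among the membrane-bound ligands neither passed. Cx3cl1, fractalkine, stood at 1.11, 0.91 and 0.92 in controls and at 0.80, 0.82 and 0.59 after UVB (-0.25 ± 0.13, limma adjusted p = 0.246). Cxcl16, the ligand of Cxcr6, stood at 2.32, 2.43 and 2.51 in controls and at 2.13, 2.21 and 1.89 after UVB (-0.35 ± 0.14, limma adjusted p = 0.140). Cxcr6, found on resident T cells, had 0.10 ± 0.25, and its 2 probes had opposite signs near 0 (limma adjusted p = 0.826). Cxcl13 and Cxcl17 were not detected on any array.

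Cx3cr1, the receptor of Cx3cl1 on monocytes, macrophages and some epidermal leukocytes, stood at -0.67, -0.75 and -0.99 in controls and at -2.03, -2.26 and -2.17 after UVB. Both groups were tight and far apart. The fall of 1.35 ± 0.14 equals 2.54-fold (limma adjusted p = 0.00455), and it passed without any 1 array (limma adjusted p = 0.0108 to 0.0270). With normexp the log2 fold change was -0.79. A second, dimmer Cx3cr1 probe was not detected on any UVB array. Its log2 fold change of -1.03 ± 0.28 did not pass (limma adjusted p = 0.0621 over all probes), and was -0.06 with normexp. Of 12 macrophage and monocyte markers on the array, 9 were tested, with 1 higher and 2 lower, against 5.54% and 7% of all targets. Adgre1 (-1.88 ± 0.11) and Csf1r (-1.52 ± 0.17) fell. Lyz2 passed as higher and was detected on 1 of 3 control arrays. The median log2 fold change of the tested list was -0.01, and Cd163 was not detected on any array. The summed level of that list was 19.2 to 21.4 in controls and 7.04 to 9.81 after UVB. Most of that sum is the level of Csf1r, so it does not stand for the list. Langerhans and dendritic cell markers were lower for 5 of 11 tested, with summed levels of 201 to 235 in controls and 87.3 to 117 after UVB, and all 12 were detected on at least 1 array. Their part in the fall of Cx3cr1 was not tested.

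Of 13 inflammatory CC ligands, 10 were tested, 2 rose and none fell, against 5.54% and 7% of all targets. Ccl8, which attracts monocytes and T cells and in mice acts through Ccr8, stood at -1.63, -0.39 and -2.00 in controls and at 2.57, 3.13 and 0.65 after UVB. The groups were apart but widely spread, with UVB replicate 3 lowest. The rise of 3.46 ± 0.72 equals 11.0-fold (limma adjusted p = 0.0308). Ccl8 passed again only without UVB replicate 3 (limma adjusted p = 0.0124). With control replicate 1, 2 or 3 left out the limma adjusted p was 0.0809, 0.0568 and 0.0866, and with UVB replicate 1 or 2 left out it was 0.0980 and 0.0721. Its receptor Ccr8 stood at -3.25, -2.89 and -2.91 in controls and at -2.65, -3.55 and -2.39 after UVB, and did not pass (0.16 ± 0.31, limma adjusted p = 0.767). Ccl6, a CC ligand made by macrophages and other myeloid cells, stood at -0.28, 0.55 and 0.58 in controls and at 1.78, 2.39 and 2.13 after UVB. Every UVB array was above every control by more than 1 unit on the log2 scale. The rise of 1.81 ± 0.28 equals 3.51-fold (limma adjusted p = 0.0143), and it passed without any 1 array (limma adjusted p = 0.0259 to 0.0454). The receptor Ccr1, through which Ccl6 acts, was not detected on any array.

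The remaining inflammatory CC ligands did not pass. Ccl2 and Ccl7, monocyte attractants, had log2 fold changes of 0.28 ± 0.22 and 0.24 ± 0.26 (limma adjusted p = 0.428 and 0.576). Ccl2 stood at 0.44, 0.53 and 1.04 in controls and at 1.03, 1.16 and 0.66 after UVB, so the groups overlapped. Ccl5, a product of T cells, stood at -1.17, -1.18 and -2.36 in controls and at -0.72, -0.71 and -1.25 after UVB (0.68 ± 0.36, limma adjusted p = 0.250). Ccl11, an eosinophil attractant, had 1.27 ± 0.53 and overlapping groups, and was detected on 1 control and 2 UVB arrays. Ccl1, another ligand of Ccr8, had non-overlapping groups but a small difference (0.45 ± 0.13, limma adjusted p = 0.0694). Ccl9 (-0.21 ± 0.59), Ccl12 (0.03 ± 0.35) and Ccl4 (0.05 ± 0.89) had wide errors, the widest for Ccl4, whose controls ran from -5.55 to -1.83. Ccl3 was detected on 1 array of each group, and Ccl24 and Ccl26 on none.

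**Figure D3:**
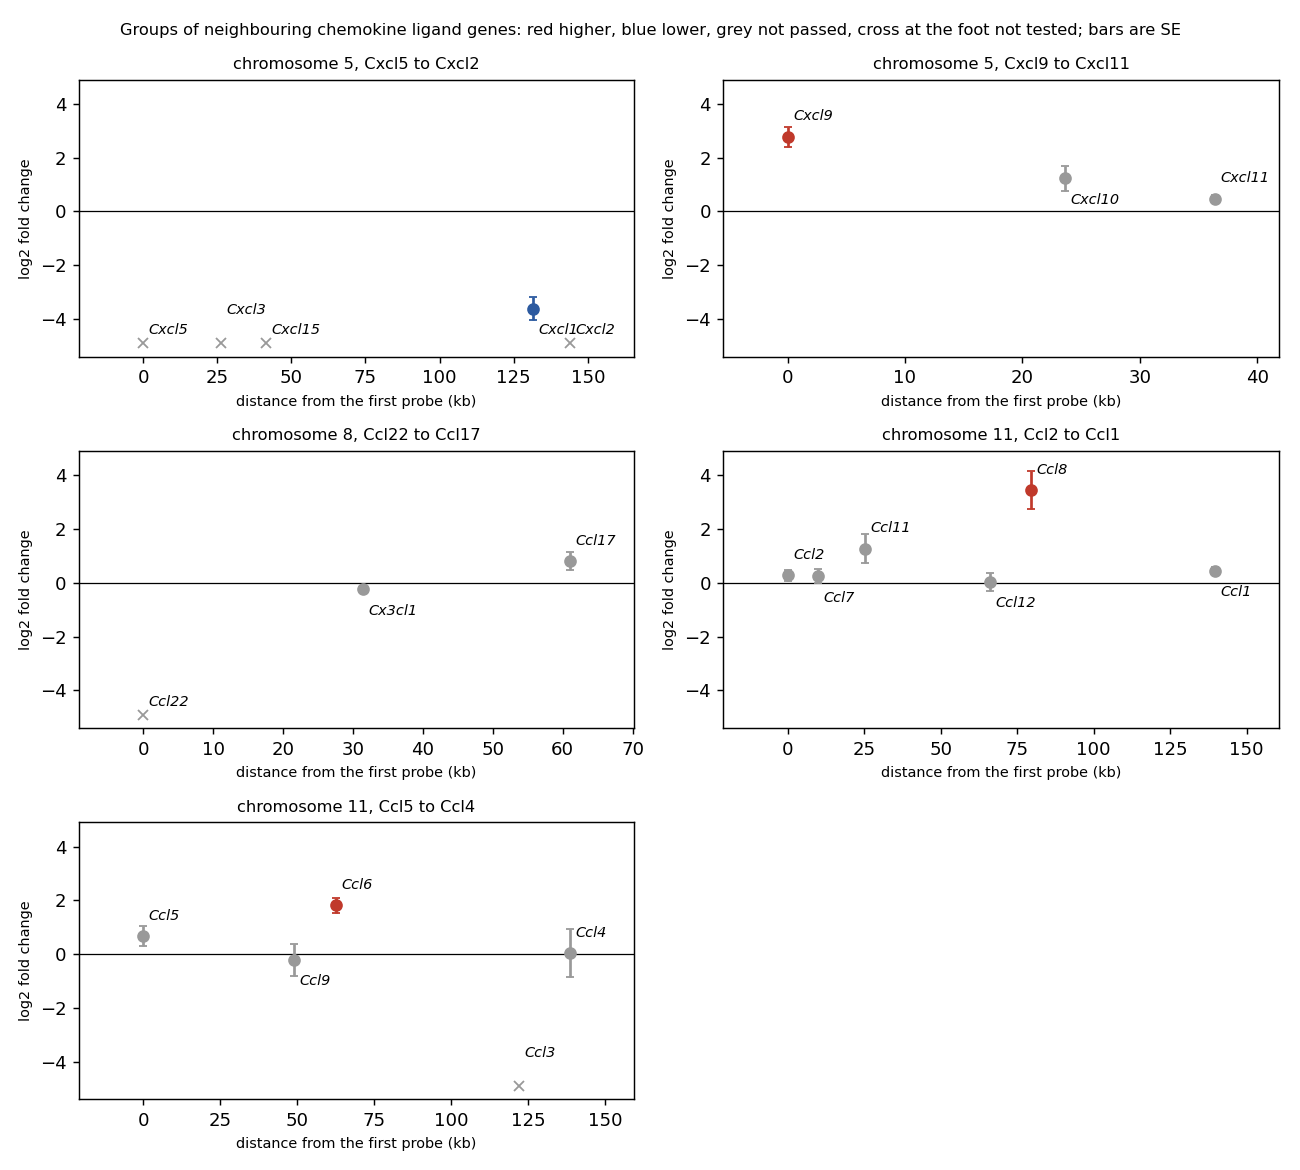
Log2 fold change (vertical axis, bars are limma SE) against distance from the first probe in kb (horizontal axis) for 5 groups of neighbouring chemokine ligand genes. Red is higher, blue lower, grey not passed, and a cross at the foot marks a gene not tested; Ccl8 (3.46) and Ccl6 (1.81) stand beside neighbours that did not pass.

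Many of these genes lie in arrays of neighbours, and calls within them were mixed. Around Ccl8, the probes of Ccl2, Ccl7, Ccl11, Ccl12, Ccl8 and Ccl1 lie on chromosome 11 between 81850650 and 81990227 of the mouse build mm9, and Ccl8 alone of the 6 passed. Ccl6 lies on the same chromosome with Ccl5, Ccl9, Ccl3 and Ccl4, between 83339296 and 83478111, and it alone of the 4 tested passed. On chromosome 5, Cxcl9, Cxcl10 and Cxcl11 (92752191 to 92788699) had positive log2 fold changes, of which only that of Cxcl9 passed. The ELR ligand genes (91190490 to 91334593) lie on the same chromosome, with Cxcl1 the single tested member. Whether neighbours differ from each other was not tested.

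Homeostatic CC ligands gave 1 rise among 4 tested and no fall, against 5.54% and 7% of all targets. Ccl25, a ligand of Ccr9, stood at -0.64, -0.37 and -0.57 in controls and at 0.07, -0.02 and 0.17 after UVB. The groups did not overlap, but the difference was small. The rise of 0.60 ± 0.13 equals 1.52-fold (limma adjusted p = 0.0332), and it did not pass when any 1 array was left out (limma adjusted p = 0.0603 to 0.0975), nor with median scaling (0.0889) or the mean of both tested probes (0.0827). Ccr9 itself stood at -0.42, -0.19 and 0.04 in controls and at -0.08, -0.04 and -0.29 after UVB (0.05 ± 0.16), and its sign turned with median scaling. A second Ccr9 probe, detected on 1 UVB array and no control array and not tested, gave -5.17, -6.70 and -5.11 against -3.70, -4.49 and -4.46. With detection on 1 array, no fold or direction is given for it. Ccl27a, the keratinocyte ligand that draws T cells into skin, stood at 7.01, 6.56 and 6.22 in controls and at 5.87, 5.95 and 5.95 after UVB. Every UVB array lay below every control, and the log2 fold change of -0.68 ± 0.21 did not pass (limma adjusted p = 0.0842). Another Ccl27a probe, whose target overlaps that of the first, gave 6.71, 6.34 and 6.06 against 5.62, 5.61 and 5.51, and its fall of 0.79 ± 0.18 passed over all probes (limma adjusted p = 0.0438). The third probe gave -0.15 ± 0.17. Ccl27a has near-identical copies in the mouse genome, so its probes may read more than 1 of them. Ccr10, the receptor of Ccl27a, stood at -4.31, -4.84 and -4.36 in controls and at -4.16, -4.02 and -2.27 after UVB, with UVB replicate 3 far above the rest (1.02 ± 0.51, limma adjusted p = 0.229).

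Ccr4, the skin-homing T cell receptor for Ccl17 and Ccl22, stood at -0.13, -0.23 and -0.19 in controls and at -1.95, -1.44 and -1.16 after UVB. The controls were nearly alike and all UVB arrays lay below them. The fall of 1.33 ± 0.21 equals 2.52-fold (limma adjusted p = 0.0152), and it did not pass without control replicate 2 (0.0601). Its ligand Ccl17 stood at -2.88, -3.62 and -3.32 in controls and at -3.12, -2.26 and -1.99 after UVB, overlapping, with 0.82 ± 0.34 (limma adjusted p = 0.158). Ccl22 was detected on 2 control arrays and no UVB array, at -6.73, -4.86 and -4.62 in controls and -6.79, -6.43 and -6.79 after UVB, and was not tested. Ccr6, of Th17 cells and some dendritic cells, had 0.75 ± 0.32 with overlapping groups (limma adjusted p = 0.171), and its ligand Ccl20 was not detected on any array. Ccl19, a lymphoid tissue ligand, had 3 tested probes of both signs, from -0.42 ± 0.26 to 0.47 ± 0.19, and none passed. Ccl28 was not detected on any array.

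Other receptors were too dim to test. Ccr3, of eosinophils, was detected on 2 control arrays and no UVB array and stood at -6.44, -4.55 and -4.72 against -4.33, -5.91 and -4.98. Ccr1l1 and Cxcr5 were not detected on any array. In all, 14 of the 53 genes were in that state, each on 1 probe. Of these 14 probes, 12 had the higher mean after UVB, with a median difference of 0.44 on the log2 scale. Over all 18519 probes on the array without detection on any of the 6, 86.6% had the higher mean after UVB and the median was 0.54. These differences lie in the background relative to the 75th percentile and give no direction for the genes.

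Atypical receptors bind chemokines without G protein signalling. Cxcr7 (Ackr3), which fell, is given above. Of 5 other tested atypical receptors and decoys, 2 fell and 1 rose, against 7% and 5.54% of all targets. Ackr2, the scavenger of inflammatory CC ligands, stood at 2.20, 2.19 and 2.54 in controls and at 0.80, 1.31 and 1.47 after UVB (-1.12 ± 0.21, limma adjusted p = 0.0241). Ackr4, the scavenger of Ccl19 and Ccl25, stood at 3.18, 2.72 and 2.73 in controls and at 1.60, 1.69 and 1.58 after UVB (-1.25 ± 0.16, limma adjusted p = 0.00832). For both, all UVB arrays lay below all controls. Pitpnm3, a lipid transfer protein reported to bind a human CC ligand, rose by 1.81 ± 0.22, while Ackr1 (-0.17 ± 0.55) and Ccrl2 (-0.08 ± 0.33) did not pass.

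Of 25 tested genes of receptor signalling, 1 rose and 5 fell, and the median log2 fold change was -0.34. Beside this and the next lists, 5.54% of all targets were higher and 7% lower, with a median of -0.04. Grk3, a kinase that desensitises receptors (-1.54 ± 0.13), and Rgs1 (-2.09 ± 0.29) and Rgs2 (-0.92 ± 0.20), which shorten G protein signals, fell, as did the arrestin Arrb1 and the kinase Grk6, and Rgs16 rose (1.36 ± 0.31). Of 22 tested inducers and regulators of chemokine transcription, Ifng rose and 5 fell, with a median of -0.26. The cytokine gene Tnf fell by 1.79 ± 0.15 (limma adjusted p = 0.00323), and the log2 fold changes of the NF-kB subunits Relb and Nfkb2 were -1.17 ± 0.13 and -0.71 ± 0.14. Those of the NF-kB target and inhibitor Tnfaip3 and of the interleukin-1 receptor Il1r1 were -1.56 ± 0.17 and -0.85 ± 0.12. Il1b (0.01 ± 0.20) did not pass, nor did the subunits Nfkb1 (-0.10 ± 0.16) and Rela (-0.32 ± 0.14). Il6 was not detected on any array. Of 13 tested processing enzymes and glycosaminoglycan partners, Dpp4, the protease that trims the N-terminus of Cxcl9, Cxcl10 and Cxcl12, rose by 0.99 ± 0.16. In that list Ext1, of heparan sulphate synthesis, fell by 0.71 ± 0.17. Mmp9, a gelatinase, passed as lower and was detected on all 3 control arrays and 1 of 3 UVB arrays.

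Markers of other cells moved beside these lists, while 5.54% of all targets were higher and 7% lower. Hair follicle genes of the growth phase were higher for 7 of 11 tested, with summed levels of 19.3 to 21.9 in controls and 277 to 1066 after UVB. Among the 7, Krt33b was detected on no control array and Krt25 on 1 of 3, so they could be tested only through their UVB arrays. Of 10 keratinocyte markers none passed (limma), and their summed level was 2332 to 2717 in controls and 2702 to 3193 after UVB. Fibroblast markers were higher for 3 of 6 tested (18.5 to 25.2 and 23.8 to 34.8). Endothelial and lymphatic markers were lower for 1 of 5, with Tek, Prox1 and Flt4 not detected on any array. The lower one was Lyve1, detected on all 3 control arrays and no UVB array, so no fold is given. Most of their summed level (10.2 to 12.5 and 13.2 to 15.1) is that of Kdr, which did not pass (0.32 ± 0.14, limma adjusted p = 0.161). No mast cell or eosinophil and basophil marker passed, of 4 and 1 tested. The part of any of these in the chemokine values was not tested.

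**Figure D4:**
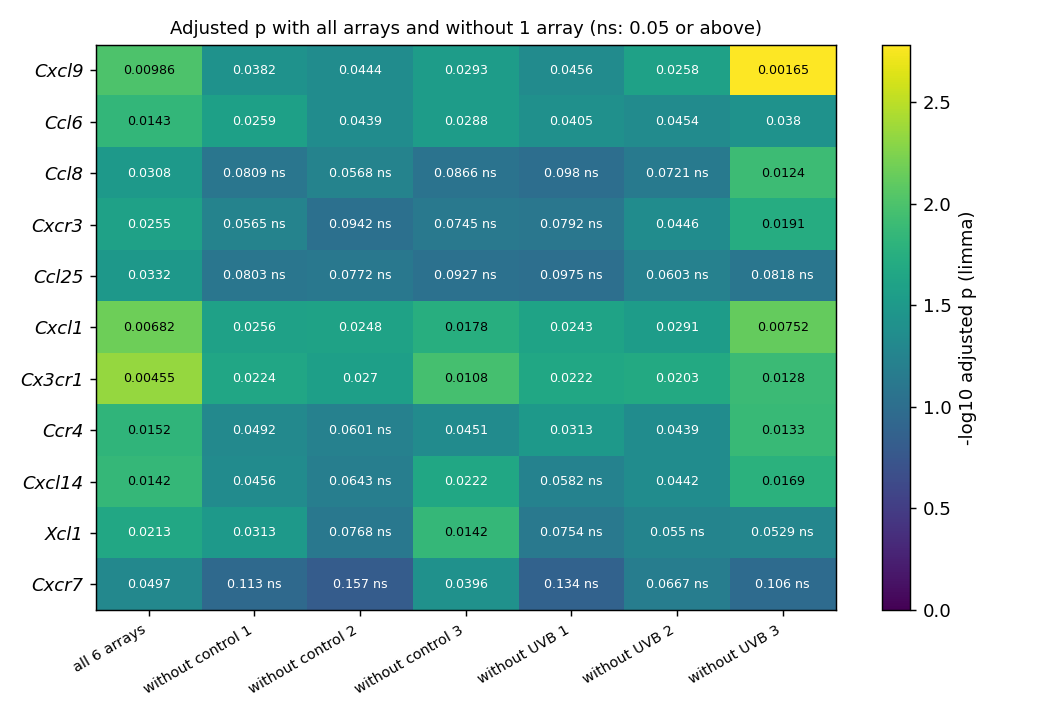
Limma adjusted p of the 11 called genes (rows) with all 6 arrays and with 1 array left out (columns), where brighter cells have smaller p and ns marks 0.05 or above. Cxcl9, Ccl6, Cxcl1 and Cx3cr1 pass in all 7 columns, and Ccl25 passes only with all 6 arrays.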

How the data were processed

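The data are Agilent mouse arrays hybridised with Cy3-labelled RNA (0.2 ug per labelling) from 3 control and 3 UVB-exposed mice, grouped by the sample titles. The authors deposited spot intensity, read out with Agilent Feature Extraction 10.7.1.1 per the submitters' processing notes. Both spatial and multiplicative corrections of trends across the slide were switched on, per the file headers. The authors also deposited a table of log2 values, made by steps that no source used here states. Its columns correlated with their own arrays at 0.999 to 1.000, each had a median of 4.96, and its scale and centring are known only from this match.

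From the intensity, log2 values were taken and the 75th percentile of each array over spots that were not controls was subtracted. Spots flagged as outliers, 135 to 274 on an array, were dropped, repeated spots averaged, and probes tested where well above background on at least 3 arrays. Genes were named through a RefSeq table (GRCm38.p6), members by the name in the files, and probe positions are in mm9. The tested probe of highest mean stood for a gene. The 2 groups were tested with lmFit and eBayes of limma 3.58.1 (R 4.3.3, two-sided, no covariate), adjusted over all targets or, where stated, all 33767 tested probes. Errors are limma standard errors. The steps were tested on simulated data. Members and lists were chosen with earlier results of these data known, so no set test is given, and some genes are not reported here. Detected means that at least 0.5 of a probe's spots were well above background. Genes named by rule are all called members, in each role the brightest and the smallest uncalled p, genes with probes of both signs, and up to 4 called genes of each list of related genes. Other values were chosen after they were seen. Alternatives were other scalings, normexp (offset 50), the deposited table, other filters, probe rules and variance models, array weights, the replicate block and leaving out each array.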

Additional observations from a re-analysis of the deposited data

How the results depend on the processing

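The 5 rises and 6 falls of chemokine and receptor genes were recomputed under 13 alternatives and with each array left out. No called gene changed direction under any of these. With an array left out this was fixed in advance, since the groups of every called gene did not overlap. The detection filters, the trend and robust variance model and the replicate block left the log2 fold change of each called gene tested as it was. They change only its p, so its direction under them is no further check. With normexp 8 genes were higher, and 2548 of all targets. The rises of Cxcl9, Ccl6 and Ccl8 and the falls of Cx3cr1 and Cxcl1 passed under every alternative other than leaving out an array, except that Cxcl1 was not tested where all 6 arrays had to be above background. With 1 array left out, 2 to 4 members were higher and 2 to 6 lower, and 468 to 957 of all targets were higher and 391 to 1064 lower. With no filter on dim probes 1061 targets were lower, and with array quality weights 2076 were higher and 2700 lower. Same-numbered arrays did not deviate together (correlations of deviations -0.26 to -0.08 over genes), so the numbers were not taken as pairs. With the replicate block 4 members (Cxcl9, Ccl6, Ccl8 and Ccl11) were higher and 2 (Cxcl1 and Cx3cr1) lower, and 472 and 301 of all targets. Cxcl12 and Ccl27a passed as falls with median scaling (-1.38 and -0.78) and normexp (-1.19 and -0.73), and median scaling moved the median of all targets from -0.04 to -0.14, and normexp to 0.08. Ccr9 turned with median scaling (-0.0502) and, over the 6 left-out arrays, ran from -0.0624 to 0.165, and Cxcr6 with median scaling (-0.00465) and ran from -0.152 to 0.334. Medians turned for the atypical receptors other than Cxcr7 (0.13), macrophage markers (0.27) and endothelial markers (0.0824) with normexp. That of endothelial markers turned with quantile normalization too (0.0240). The causes were not tested. Signal near background limits Cxcl1, Cxcr1, Cxcr4, Ccl22 and the 14 genes never well above it.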

Other observations

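Calls within ligand and receptor pairs were mixed. Among pairs in which both sides were tested, Cxcl9 and Cxcr3 were both higher, whereas Ccl25 rose and Ccr9 did not pass, Ccl8 rose and Ccr8 did not pass, and Cxcl1 fell and Cxcr2 did not pass. Cx3cr1 fell and Cx3cl1 did not pass, and Ccr4 fell while Ccl17 did not pass. Cxcl10 and Cxcl11 did not pass beside Cxcr3, nor did Cxcl12 beside Cxcr7, which fell. Neither side passed for Ccl27a and Ccr10, Cxcl16 and Cxcr6, or Ccl1 and Ccr8. Whether the 2 sides of a pair differ was not tested. The 2 probes of Cxcl11 lie next to each other on chromosome 5, at 92788567 to 92788626 and at 92788640 to 92788699 of mm9, and stood at 8.79 to 9.41 and at 3.23 to 4.17 over the 6 arrays.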
